A study of Mus musculus with 39 samples.

Results

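The genes described here are 5 secreted protease inhibitors of serpin clade A, Serpina1a, Serpina1b, Serpina1c, Serpina1e and Serpina3k. They were taken by symbol from 10061 genes measured in 39 single cells of adult mouse liver. They account for 6 of the 13568 transcripts in the data, because Serpina1a has 2 transcripts and each of the others has 1.

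Serpins are suicide inhibitors. A flexible loop near the carboxyl end, the reactive centre loop, is offered to a protease as bait, and cutting it locks the protease in a dead complex. The Serpina1 copies of the mouse correspond to human alpha-1 antitrypsin, the plasma inhibitor best known for restraining neutrophil elastase, and Serpina3k, also called contrapsin or kallikrein-binding protein, is a related plasma inhibitor. Hepatocytes are the main source of these proteins and release them into the blood, and the genes are widely used as signs of hepatocyte identity.

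The cells were GFP-positive cells sorted from the liver of Krt19CreERT/Rosa26CAG-EGFP mice and picked individually for single-cell RNA sequencing. Krt19, which encodes a keratin of biliary epithelium, drives an inducible Cre in these animals, so a cell is green if it, or an ancestor, had active Cre while the inducer was present. The inducer and its timing, the age and number of the animals, and the plates or runs are not given in the sources used here. All 39 cells are 1 group in the labels with no named animal, so cells are described one at a time and no test between them was made.

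The cells were sorted into classes by 104 measured marker genes, with no serpin among them. There were 6 hepatocyte-like cells (numbers 1 to 4, 38 and 39) and 22 duct-like cells. A further 7 cells were led by mesothelial and fibroblast genes and 4 by blood cell genes, and these were left without a cell type name. Expression is given in CPM, a linear scale recovered from the deposited log2 values. Hepatocyte-like cells each had 25 to 30 of the 31 hepatocyte markers at 100 CPM, against 0 to 13 in the duct-like cells. The bile duct markers showed the opposite picture, with 1 to 3 of 22 at 100 CPM in each hepatocyte-like cell and 6 to 14 in each duct-like cell. Krt19 was listed at 0 in all 6 hepatocyte-like cells and had a median of 123 CPM in the duct-like cells. A median of 2985 genes per cell (range 1866 to 5298) reached 1 CPM, the level called detected here. In cells 1 to 37, 1 CPM stood for a median of 12.0 reads (range 3.67 to 41.5), while the depth of cells 38 and 39 is unknown. "Listed at 0" means under 0.001 CPM and does not prove absence, since 36 of the 39 cells also had at least 1 of 12 housekeeping genes listed at 0.

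The 5 Serpina1 copies of the mouse reference, including Serpina1d, stand next to each other on chromosome 12 in the order Serpina1b, Serpina1d, Serpina1a, Serpina1c and Serpina1e. Serpina3k lies further along in the same serpin cluster, behind Serpina11, Serpina9, Serpina12, Serpina5 and several Serpina3 genes. The coding sequences of the Serpina1 copies are 96.3% to 98.5% identical, while that of Serpina3k is 56.1% to 57.1% identical to theirs. Differences among the copies are crowded into the stretch that encodes the bait loop. Of 86 positions that vary among the 5 coding sequences, each 1242 bases long, 18 fall in the 66 bases from coding position 1096 to 1161, the window of that length with the most such positions, against a median of 4 over all windows. That stretch is shown for each copy, 5′ to 3′ from the GENCODE M21 transcripts, because the loop sets which protease is caught and because reads from it can tell the copies apart. Capitals mark the bases that differ between copies.
Serpina1a: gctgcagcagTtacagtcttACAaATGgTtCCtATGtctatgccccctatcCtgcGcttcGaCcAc
Serpina1b: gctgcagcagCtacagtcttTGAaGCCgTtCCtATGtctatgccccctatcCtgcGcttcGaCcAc
Serpina1c: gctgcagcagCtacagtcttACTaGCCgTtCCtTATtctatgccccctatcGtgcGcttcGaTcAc
Serpina1d: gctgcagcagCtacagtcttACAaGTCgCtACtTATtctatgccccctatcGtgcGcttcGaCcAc
Serpina1e: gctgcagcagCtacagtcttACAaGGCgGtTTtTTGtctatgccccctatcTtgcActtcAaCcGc

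Reads from elsewhere in these genes are harder to assign. Of all 50-base words in the main Serpina1a transcript, 19.1% occur in no other gene, compared with 25.8% for Serpina1c, 52.9% for Serpina1b and 62.1% for Serpina1e. For Serpina3k the share was 86.0%, and 0% of its words were shared with a Serpina1 copy. The read length is not given in the sources used here. The split of reads among Serpina1 copies, and of Serpina1a and Serpina1c in particular, is therefore uncertain, whereas their sum and the values of Serpina3k are less exposed to it.

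The promoters of the Serpina1 copies share a long stretch just upstream of the annotated start. RefSeq promoters (build GRCm38.p6, from 250 bases before to 50 after each start) were available for the 5 Serpina1 copies. They are shown because all 5 copies were present together in the hepatocyte-like cells, while no other cell held all of them. Each stretch of 76 bases is written 5′ to 3′ on the gene's strand, and capitals mark the 10 positions at which the copies differ.
Serpina1a, chr12:103863625-103863700, minus strand: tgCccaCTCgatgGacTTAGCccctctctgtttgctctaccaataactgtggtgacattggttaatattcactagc
Serpina1b, chr12:103738200-103738275, minus strand: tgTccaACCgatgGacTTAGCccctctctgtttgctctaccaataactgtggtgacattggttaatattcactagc
Serpina1c, chr12:103904962-103905037, minus strand: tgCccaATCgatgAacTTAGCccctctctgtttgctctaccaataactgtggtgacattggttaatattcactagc
Serpina1d, chr12:103773634-103773709, minus strand: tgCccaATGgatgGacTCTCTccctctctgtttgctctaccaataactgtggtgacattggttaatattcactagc
Serpina1e, chr12:103956960-103957035, minus strand: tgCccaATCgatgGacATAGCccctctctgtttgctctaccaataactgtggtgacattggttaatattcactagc

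The stretches were 90.8% to 97.4% identical to each other. Their last 55 bases are the same in all 5 copies, the longest exact run that the upstream parts share. Because the run was defined from these 5 copies, its presence in them was fixed in advance. Searched on either strand of 32851 promoters, it was found in those 5 (0.0152%) and in no other. In Serpina1e the run ends 62 bases before the annotated start, while in the other copies it ends 0 to 11 bases before it.

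All 5 genes were detected together in the 6 hepatocyte-like cells and in none of the other 33, which is 6 of 39 cells (exact Clopper-Pearson 95% interval 5.86% to 30.5%, covering the choice of cells only). Their summed level in the hepatocyte-like cells had a median of 26395 CPM (range 16747 to 68909), against 5.00 CPM in the 33 others (range 0 to 8860). Together they made up 2.09% to 5.90% of all CPM in a hepatocyte-like cell, with a median of 4.84%. The deposited values do not sum to 1000000 CPM in each cell, and with every cell rescaled to that total the median sum in the hepatocyte-like cells was 48388 CPM, or 51081 CPM when Rn45s, Lars2 and Rorb were also left out. In other cells these alternatives gave 4.56 and 5.26 CPM. Without cells 38 and 39, whose depth is unknown, the median over the remaining 4 hepatocyte-like cells was 33844 CPM.

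Serpina1a had 1786, 8826, 4001, 3854, 2463 and 1524 CPM in hepatocyte-like cells 1, 2, 3, 4, 38 and 39. Serpina1b had 2445, 10886, 3964, 3259, 2752 and 3074 CPM in the same cells. Serpina1c had 4564, 15097, 10750, 5095, 4244 and 3858 CPM. On these deposited totals cell 2 was the highest for each gene. With each cell rescaled to 1000000 CPM, cell 1 was the lowest of the 6 for all 5 genes described here, and the highest was cell 2 for Serpina1a and Serpina1b and cell 3 for Serpina1c. Of the 10061 genes, ranked by the median over the hepatocyte-like cells, Serpina1c stood at rank 22, Serpina1b at 34 and Serpina1a at 35. Albumin, the main plasma protein, stood at rank 2.

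Serpina1e had 1217, 19307, 10933, 9737, 7407 and 5896 CPM in hepatocyte-like cells 1, 2, 3, 4, 38 and 39. As deposited, it held both the highest value of any of the 5 genes, in cell 2, and the lowest in this class, in cell 1. Its median of 8572 CPM placed it at rank 8. Serpina3k had 6735, 14794, 8716, 7380, 6599 and 4036 CPM, the narrowest spread of the 5 on a log2 scale (SD 0.61, against 1.36 for Serpina1e; n = 6 cells). Its median of 7058 CPM placed it at rank 11.

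**Figure D1:**
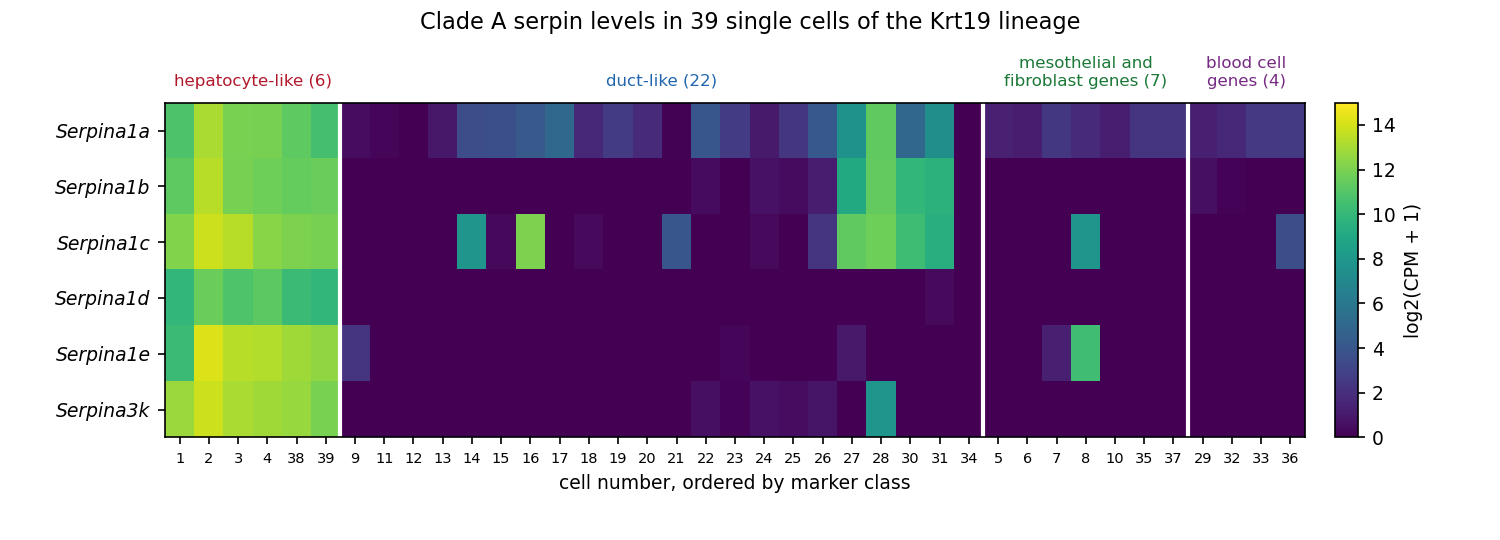
Level of each of the 5 genes, with Serpina1d, in each of the 39 cells, as log2(CPM + 1) on a colour scale, with cells grouped by class from hepatocyte-like on the left. All genes are at or above 958 CPM in the 6 hepatocyte-like cells, and outside them the colour is patchy and differs from gene to gene.

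Per length, Serpina3k, whose transcript of 2057 bases is the longest of the main transcripts, came after Serpina1c instead of before it, and the closely spaced Serpina1a and Serpina1b changed places. Per kilobase of transcript, the median over the 6 hepatocyte-like cells was 6620 CPM for Serpina1e, 3548 for Serpina1c, 3431 for Serpina3k, 2319 for Serpina1a and 2272 for Serpina1b. The ranges overlap for every pair of neighbours in that order. Serpina1d, the remaining copy, was lower at 1086 CPM per kilobase (687 to 2260). In CPM it had 958, 3150, 1844, 2358, 1184 and 980 in hepatocyte-like cells 1, 2, 3, 4, 38 and 39, lower than each of the other 4 copies in all 6 cells.

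The mixture was similar in 5 of the hepatocyte-like cells and different in cell 1. Serpina1e contributed a median of 30.0% of the sum over the 6 cells but 7.27% in cell 1, the lowest of the class. Serpina3k contributed a median of 23.9% and 40.2% in cell 1, the highest. Serpina1c contributed 17.4% to 28.0%, Serpina1b 10.3% to 16.7% and Serpina1a 8.29% to 13.1%. Cell 1 also had 13202 CPM of albumin, the lowest of the 6 as deposited. These shares do not depend on how a cell is scaled.

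**Figure D2:**
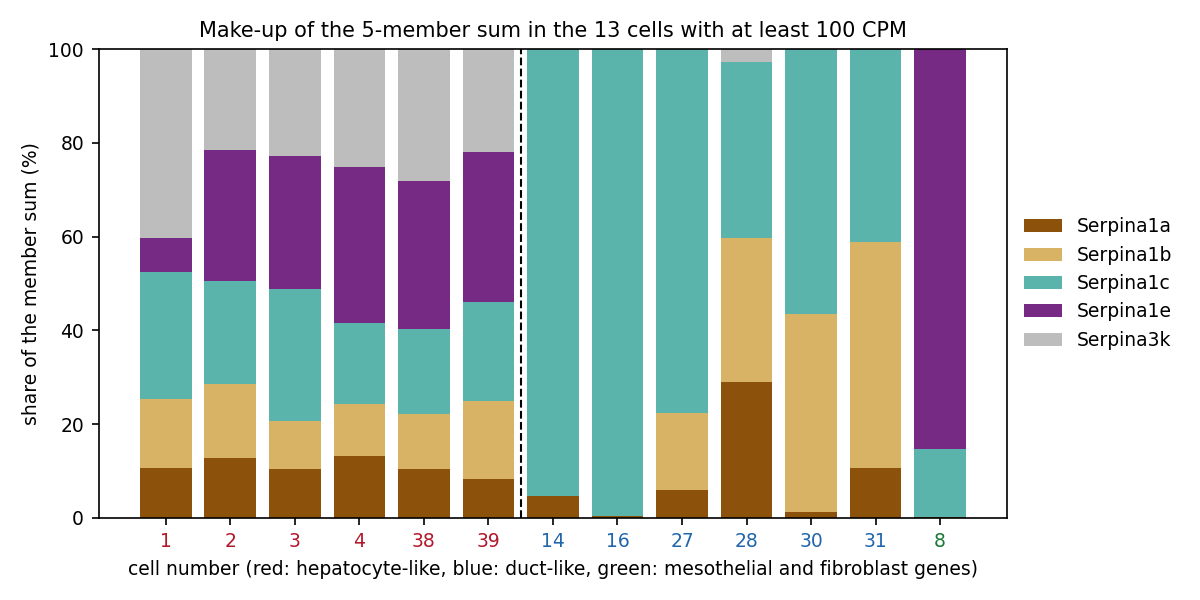
Share of each gene in the summed level of the 5 genes, in percent, for each hepatocyte-like cell and then for each other cell whose sum reached 100 CPM. Hepatocyte-like cells hold all 5 genes, with Serpina1e at 7.27% in cell 1, while duct-like cells consist mainly of Serpina1a, Serpina1b and Serpina1c and cell 8 mostly of Serpina1e.

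Outside the hepatocyte-like class the sum reached 100 CPM in 7 of 33 cells (95% interval 8.98% to 38.9%), 6 of the duct-like cells and 1 of the 7 cells with mesothelial and fibroblast genes. At 10 CPM the count was 13. The median sum was 8.60 CPM in the duct-like cells, 3.73 CPM in the cells with mesothelial and fibroblast genes and 3.55 CPM in the cells with blood cell genes, and the ranges of these 3 classes overlap. In the 4 cells with blood cell genes the highest sum was 16.3 CPM.

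The gap between the classes was widest for Serpina3k. Its lowest hepatocyte-like value, 4036 CPM in cell 39, was above the highest value elsewhere, 233 CPM in duct-like cell 28 (about 2042 reads), and it was listed at 0 in 27 of the other 33 cells. Of the 9646 genes detected in at least 4 cells, 1.69% were wholly above the other cells in this way. As deposited, the same held for 1 of the 5 genes, Serpina3k, and each of the other 4 overlapped through 1 cell outside the class. With each cell rescaled to 1000000 CPM it held for all 5, against 1.97% of 9754 genes, and likewise without Rn45s, Lars2 and Rorb (1.92% of 9789 genes). The overlaps that follow are those of the deposited values. Serpina1a had 1524 CPM at its lowest in the hepatocyte-like cells and 2576 CPM in cell 28. Serpina1b had 2445 CPM at its lowest and 2713 CPM in cell 28.

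Serpina1c had 3858 CPM at its lowest in the hepatocyte-like cells and 4271 CPM in duct-like cell 16. Serpina1e had 1217 CPM at its lowest, in cell 1, and 1329 CPM in cell 8. Cells 8, 16 and 28 gave these overlaps. Rescaled, the closest of the 4 was Serpina1a, with 2230 CPM at its lowest in the hepatocyte-like cells and 1890 CPM in cell 28, or 2340 and 2325 CPM without the 3 genes. By mean log2(CPM + 1), hepatocyte-like minus other cells, the difference was 8.85 for Serpina1a, 10.56 for Serpina1b, 10.15 for Serpina1c, 12.29 for Serpina1e and 12.54 for Serpina3k. A difference of at least 2 in this direction was found for 11.7% of the 9646 genes and for 5 of the 5, and 7.87% of genes were lower by that much. Of all genes past 2, 59.8% were higher as deposited and 70.2% with cells rescaled to 1000000 CPM. The median difference over all genes was -0.41 as deposited and -0.27 rescaled.

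The 6 duct-like cells above 100 CPM did not carry the hepatocyte mixture. Cell 14 had 225 CPM of Serpina1c and 10.8 CPM of Serpina1a, and cell 16 had 4271 CPM of Serpina1c and 17.0 CPM of Serpina1a. Both had Serpina1b, Serpina1e and Serpina3k listed at 0, so Serpina1c was 95.4% and 99.6% of their sums. Cell 27 had 2616 CPM of Serpina1c, 556 CPM of Serpina1b and 200 CPM of Serpina1a, with Serpina1e at 0.996 CPM. In all 3 cells Serpina1c was the largest part.

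The other 3 duct-like cells held more of the Serpina1b copy. Cell 28 had 3338 CPM of Serpina1c, 2713 of Serpina1b, 2576 of Serpina1a and 233 of Serpina3k. Cell 30 had 1297 CPM of Serpina1c, 966 of Serpina1b and 30.1 of Serpina1a. Cell 31 had 787 CPM of Serpina1b, 673 of Serpina1c and 173 of Serpina1a. None of the 3 had Serpina1e at or above the detection level, and 1 of them had Serpina3k.

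Serpina1e was under the detection level in all 6 duct-like cells with the sum above 100 CPM, at 0.996 CPM in cell 27 and 0 in the others. As a percentage of Serpina1c, it was 26.7% to 191% in the 6 hepatocyte-like cells, with a median of 140%, and 0% to 0.0381% in the 6 duct-like cells with Serpina1c at 100 CPM. In those duct-like cells 3 reads correspond to 0.202 to 0.373 CPM, the limit that 0 reads allows for the sampling of reads alone. It does not cover transcripts missed before sequencing. Serpina3k was 81.1% to 155% of Serpina1c in the hepatocyte-like cells and 0% to 6.99% in the duct-like ones. Serpina1d was also undetected in all 22 duct-like cells, with 0.284 CPM at most. Over the whole duct-like class, 3 cells had Serpina1a at 100 CPM, 4 had Serpina1b, 6 had Serpina1c, 0 had Serpina1e and 1 had Serpina3k. Of all genes in the comparison, 65.4% reached 100 CPM in at least 1 duct-like cell, as did 4 of the 5.

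**Figure D3:**
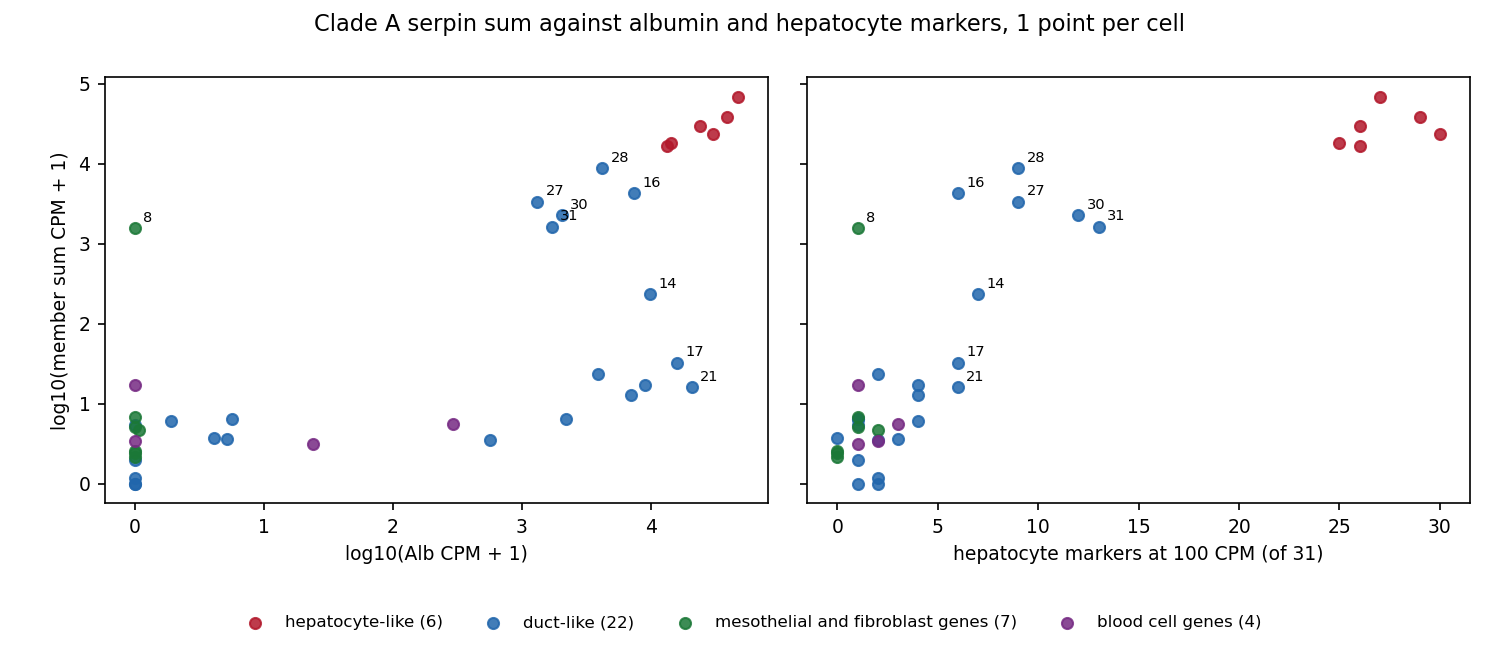
Summed level of the 5 genes in every cell against albumin (left) and against the number of hepatocyte markers at 100 CPM (right), coloured by class. The summed level and albumin are shown as log10(CPM + 1). The 6 hepatocyte-like cells lie together at the top right, and the 13 duct-like cells with albumin at 100 CPM or more spread from near 0 to 8860 CPM of the serpins.

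Albumin and the serpins went together only in part in the duct-like cells. Over the 22 cells their log2(CPM + 1) values had Pearson r = 0.649 and Spearman rho = 0.743, but their ratio varied widely. The serpin sum was 78.1% to 147% of albumin in the hepatocyte-like cells (median 124%), and 0.0739% to 256% in the 13 duct-like cells with albumin at 100 CPM or more (median 0.585%). Cell 21 had 20694 CPM of albumin as deposited, above the lowest hepatocyte-like value of 13202 CPM, with a serpin sum of 15.3 CPM. Cell 17 had 16056 CPM of albumin and 31.8 CPM of the serpins. Cell 27 was at the other end, with 1318 CPM of albumin and 3373 CPM of the serpins. Of these 13 cells, 6 had the serpin sum at 100 CPM and 7 did not, and no duct-like cell had the serpins at that level without albumin.

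Duct-like cells with the serpins showed more hepatocyte markers in general. Over the 22 cells, the serpin sum followed the mean of the 31 markers (Pearson r = 0.902, Spearman rho = 0.817, on log2(CPM + 1)). When the marker tree was taken 1 step further, to 5 clusters, a choice made after seeing the data, the 22 duct-like cells divided into 7 (cells 14, 16, 17, 27, 28, 30 and 31) and 15. All 6 duct-like cells with the serpins at 100 CPM fell among the 7, which had a median sum of 2293 CPM (31.8 to 8860), while the 15 had a median of 4.47 CPM (highest 22.6). The 7 cells had 6 to 13 of the 31 hepatocyte markers at 100 CPM and the 15 had 0 to 6. The tree was built on markers that include these, so a difference in them is partly built into the split. Summed, these markers had 12126 to 43068 CPM in the 7 cells and 72.8 to 31362 CPM in the 15, which overlap, against 47623 to 172748 CPM in the hepatocyte-like cells, and their part in the serpin levels was not tested. Both sets held bile duct markers, 6 to 11 of 22 in the 7 cells and 7 to 14 in the 15. Spp1, the bile duct matrix protein osteopontin, was at 10921 CPM or more in each of the 7. Krt19 went the other way and did not reach 100 CPM in any of the 7. It was at 80.4 CPM in cell 14, 12.1 in cell 27 and 1.60 in cell 28, and listed at 0 in cells 16, 17, 30 and 31. Krt19, itself a marker of the tree, reached 100 CPM in 11 duct-like cells, all among the 15. Low values were not particular to the 7, since cells 15 and 26 had Krt19 listed at 0. Cell 34 had 0.224 CPM and cell 25 had 44.6 CPM.

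The 7 cells differed from hepatocyte-like cells in which of the 31 hepatocyte markers they held. Trf (transferrin) was at 16102 CPM in cell 28 and albumin at 16056 CPM in cell 17, within the deposited range of the hepatocyte-like cells, while Fabp1 and Apoa1, picked after their values were seen, did not reach 100 CPM in any of the 7. Fabp1, a liver fatty acid binding protein, was listed at 0 in all of them, against 2333 to 9994 CPM in the hepatocyte-like cells. Apoa1, an apolipoprotein of plasma HDL, was below 100 CPM in cell 31 and at most 0.166 CPM in the other 6, against at least 4977 CPM in the hepatocyte-like cells. The number of genes detected had a median of 2957 in the 7 cells and 2682 in the 15. No doublet caller was run.

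Among the 13 cells with the sum at 100 CPM, cell 8 had the highest share of Serpina1e. It had 1329 CPM of Serpina1e, 227 CPM of Serpina1c and 2.43 CPM of Serpina1a, with Serpina1b and Serpina3k listed at 0, so Serpina1e made up 85.3% of the sum. By the worth of 1 read this was about 26954 reads of Serpina1e. All 11 mesothelial markers and 5 fibroblast markers reached 100 CPM in this cell, albumin was listed at 0, and 29 of the 31 hepatocyte markers were listed at 0. The hepatocyte marker above the detection level was Trf, transferrin, at 601 CPM. Mup10 and Mup9, major urinary proteins made by hepatocytes, were at 461 and 140 CPM in the same cell.

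Outside cell 8, Serpina1e reached 1 CPM in 2 of the non-hepatocyte-like cells, cell 9 with 4.05 CPM and cell 7 with 1.46 CPM. Mup10 was at 2.08 and 0.876 CPM in those cells. Mup10 was also the gene most like Serpina1e over all 39 cells (Pearson r = 0.991 on log2(CPM + 1)), followed by Mup9 (0.971) and Saa2, a serum amyloid protein of the acute phase (0.949). Saa2 was at 8.49 CPM in cell 8. The Mup genes are also a family of close copies, and how reads divide among them is uncertain.

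Serpina1a differed from the rest in being found at a low level nearly everywhere. It was detected in 33 of 39 cells, including 27 of the 33 that were not hepatocyte-like, where its median was 4.07 CPM. By comparison Serpina1c was detected in 10 of those 33 cells, Serpina1b in 5, Serpina1e in 3 and Serpina3k in 1. In 17 cells Serpina1a was the sole gene of the 5 at 1 CPM, and in 4 cells none reached that level. In the 13 other cells in which albumin was listed at 0, Serpina1a had a median of 1.44 CPM and at most 4.94 CPM, with 8 cells at 1 CPM. Such levels stood for a median of 27.3 reads (at most 89.7). Whether they come from the cells, from free RNA or from reads of another gene was not tested.

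Genes whose pattern was most like the mean log2(CPM + 1) of the 5, over 39 cells and among 9641 genes, were F2 (prothrombin; r = 0.938), Fgg (0.937), Fbp1 (a gluconeogenic enzyme; 0.932), Apoa1 (0.916), Serpina10 (0.915), Fgb (0.913), Apoc4 (0.910), Itih3 (0.909), Serpina1d (0.908) and Vtn (0.907). Fgg and Fgb are fibrinogen chains and Vtn is vitronectin. Such values rest largely on the gap between the 6 hepatocyte-like cells and the rest. Among the 33 other cells the leading genes were Fbp1 (0.857), Vtn (0.815), Scn7a (0.798), Creb3l3 (0.771), Net1 (0.767), Carm1 (0.765), Itih2 (0.729), Ltb (0.726), Dusp16 (0.724) and Ahsg (0.722). Each of these was detected in 4 to 13 of the 33 cells.

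Taken gene by gene, the nearest neighbours differed. Serpina1a was most like Serpina1b (r = 0.932), Fbp1 (0.922) and F2 (0.917), and Serpina1b was most like Fbp1 (0.967), Vtn (0.961) and Serpina1a. Serpina1c was closest to Serpina1b (0.872), Serpina1a (0.859) and Rbp4, a retinol carrier (0.857). Serpina3k was closest to Itih3 (0.969), Fabp1 (0.964) and Mup3 (0.964), none of which reached 100 CPM outside the hepatocyte-like cells. Fbp1 had 3270 CPM and F2 had 919 CPM in cell 28, the duct-like cell with the highest serpin sum. All these r values describe the 39 cells, which differ in depth and scaling.

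Other clade A serpins were lower. Of 17 listed, 9 were measured, and 8 were detected in enough cells to be compared. In 4 of the 8 every hepatocyte-like cell was above every other cell, against 1.69% of all genes. Those 4 reached 1 CPM in hepatocyte-like cells only, so they entered the comparison through that class alone. By at least 2 on the log2 scale, 6 were higher in the hepatocyte-like cells, against 11.7% of all genes. The median difference over the 8 was 4.47, against -0.41 over all genes. Apart from Serpina1d, the genes without overlap were Serpina3m, Serpina6, the corticosteroid carrier, and Serpina3c. Serpina3m was at a median of 254 CPM (164 to 723) in hepatocyte-like cells and listed at 0 in every other cell. The medians were 10.5 CPM (0.243 to 190) for Serpina6 and 1.15 CPM (0.684 to 1.34) for Serpina3c. Each of these 2 reached 1 CPM in only 4 cells, so their lowest hepatocyte-like values were under the detection level.

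Serpina10, which inhibits an activated clotting factor together with protein Z, was at a median of 137 CPM in hepatocyte-like cells, 106 CPM in duct-like cell 27 and 51.4 CPM in cell 28. Serpina3n, an acute phase serpin, was at a median of 107 CPM in hepatocyte-like cells, but its highest value was 3676 CPM in cell 28, which also led Serpina1a and Serpina1b among the other cells. Serpina3g, known from blood cells, was at 391 CPM in cell 36, 1 of the cells with blood cell genes, and at most 74.0 CPM in the hepatocyte-like cells. Serpina12 was at most 175 CPM and Serpina11 at most 11.3 CPM, both in cell 38.

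**Figure D4:**
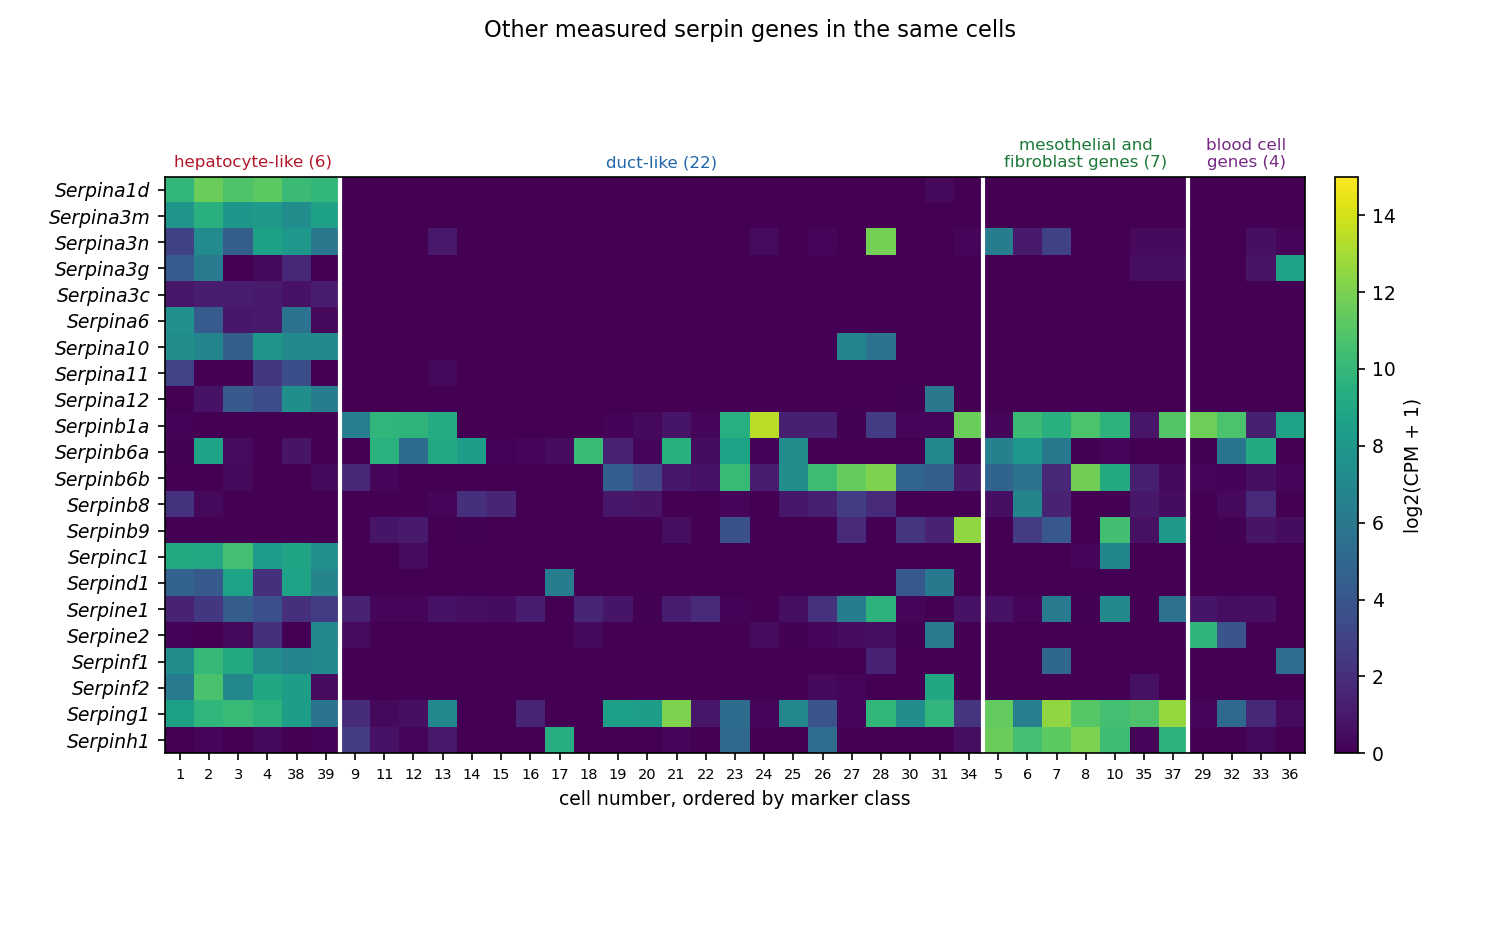
Level of the measured serpins outside the 5 described genes in every cell, as log2(CPM + 1) on a colour scale, with hepatocyte-like cells on the left. Serpinc1 and Serpina3m are present in the 6 hepatocyte-like cells, while Serpinb1a and Serpinh1 reach 100 CPM only among the other 33 cells.

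Serpins of other clades were divided between cell classes. Of 13 measured, 5 were higher in the hepatocyte-like cells by at least 2 on the log2 scale and 3 were lower, with a median difference of 0.90. Over all 9646 genes, 11.7% were higher, 7.87% were lower and 1.69% did not overlap. Serpinc1 (antithrombin) and Serpinf1 did not overlap, with medians of 482 and 161 CPM in the hepatocyte-like cells and at most 117 and 40.2 CPM in any other. Serping1, the C1 inhibitor of complement, was at a median of 579 CPM in hepatocyte-like cells and reached 6365 CPM in cell 37. Serpinb1a, an intracellular inhibitor of neutrophil proteases, was at most 0.0921 CPM in the hepatocyte-like cells, reached 100 CPM in 14 of the others and peaked at 10967 CPM in duct-like cell 24. Serpinh1, a collagen chaperone that does not inhibit proteases, peaked at 4260 CPM in cell 8, and Serpinb6b at 4457 CPM in cell 28.

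Secreted inhibitors outside the serpin family went partly with the 5 genes. Of 22 compared, 13 were higher in the hepatocyte-like cells by at least 2 on the log2 scale and 2 were lower (median difference 4.87). In 2 of the 22 every hepatocyte-like cell was above every other cell. Over all 9646 genes the shares were 11.7% higher, 7.87% lower and 1.69% without overlap. Ahsg (fetuin-A) stood at a median of 3281 CPM in hepatocyte-like cells but reached 100 CPM in 10 duct-like cells as well, and Ambp, the precursor of bikunin, reached it in 13. Slpi, an inhibitor of epithelial secretions, was at most 1.21 CPM in the hepatocyte-like cells and up to 37589 CPM elsewhere. Cst3 (cystatin C) reached 100 CPM in 5 of the 6 hepatocyte-like cells and in 21 of the others.

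Proteases of neutrophil granules were seen outside the hepatocyte-like cells, and many of those of plasma within them. Elane, neutrophil elastase, was listed at 0 in all 6 hepatocyte-like cells and at 43187, 21205 and 25577 CPM in cells 29, 32 and 36, with Serpina1a at 1.54, 2.34 and 4.94 CPM there. Prtn3 and Ctsg, the other main elastase-like and chymotrypsin-like proteases of the granules, reached 7859 and 2014 CPM and were listed at 0 in the hepatocyte-like cells. Of 16 serine proteases of plasma and tissue that were compared, 11 were higher in the hepatocyte-like cells by at least 2 (median difference 3.61) and 1 was lower. The shares over all genes were 11.7% higher, 7.87% lower and 1.69% without overlap. Plg (plasminogen) and Klkb1 (plasma kallikrein), named after their values were seen, did not overlap. Both entered the comparison through the hepatocyte-like cells alone. Their medians were 517 and 107 CPM in hepatocyte-like cells, with at most 0.173 and 0 CPM elsewhere. The lowest hepatocyte-like value was 420 CPM for Plg but 0.243 CPM, under the detection level, for Klkb1. Hpn (hepsin), a membrane protease, was at a median of 382 CPM in hepatocyte-like cells and reached 100 CPM in 5 duct-like cells.

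Regulators and secretory factors were set against all genes, of which 11.7% were higher and 7.87% lower, with a median difference of -0.41. Among 17 hepatic transcription factors compared, 4 were higher in the hepatocyte-like cells by at least 2 and 0 were lower, with a median difference of 0.47 and 0 without overlap. Hnf4a was at 100 CPM in 3 hepatocyte-like and 4 duct-like cells, with its highest value, 7889 CPM, in duct-like cell 15, whose serpin sum was 11.8 CPM. Onecut2 reached 100 CPM in 3 hepatocyte-like cells and 17 duct-like cells. Of 27 secretory pathway factors 4 were higher and 1 was lower (median difference 0.29), which is close to the shares over all genes. Hspa5, the main chaperone of the endoplasmic reticulum, was at a median of 126 CPM in hepatocyte-like cells and 835 CPM in the duct-like ones.

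Receptors for serpin complexes and acute phase signals gave no common direction, with 3 of 14 higher, 3 lower and a median difference of -0.14, against 11.7%, 7.87% and -0.41 over all genes. Socs3, a brake on cytokine signals, was at most 14.3 CPM in the hepatocyte-like cells and reached 100 CPM in 10 of the others. By contrast, 24 of 27 plasma proteins of hepatocytes, a list that shares markers with the classes, were higher by at least 2 (median difference 9.24). Of the 27, 10 did not overlap, against 1.69% of all genes. Complement C3 was an exception in its spread, at a median of 2616 CPM in hepatocyte-like cells and 100 CPM or more in 25 of the others.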

How the data were processed

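Expression was measured in 39 single cells of 1 group. The submitters' processing notes name build mm9, Bowtie 0.12.9, eXpress 1.5.1 and edgeR (version not given), without order or settings. The deposited values are on a log2 scale, inferred from the values, for 13568 transcripts. The lowest, -2.58, is common to all cells and was taken as no reads. Each value v became 2 to the power v minus 0.167, called CPM, and transcripts were summed per symbol. The plan had assumed a linear normalised unit and was applied to these back-transformed values, with no count model.

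Cells were clustered by Ward linkage on log2(CPM + 1) of 104 markers, with 4 clusters chosen from 2 to 6 by silhouette (0.372). Detection was 1 CPM, and genes compared were detected in at least 4 cells. Genes detected in hepatocyte-like cells alone could pass this filter, in the lists as among all genes. Clustering and pattern ranking were tested on simulated data. No doublet caller was run and no cell was removed. Reads carry no molecular identifiers, so intervals cover counting of cells only.

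The genes, lists and rules were chosen with earlier results of these data known. Named genes were the 5 members, the 10 genes of highest Pearson r to their mean over all cells and over the cells outside the hepatocyte-like class, the 3 highest for each member, and up to 4 genes of highest mean per list, with all measured clade A serpins and the 3 leading granule proteases. Others, such as Serpinc1, Serpinf1, Plg, Klkb1 and Krt19, and the cells singled out were picked after their values were seen. Alternatives covered thresholds, scaling, transcript choice, pseudocount, clustering and low-gene cells. Tools were Python 3.11.15, numpy 2.4.6, pandas 2.3.3, scipy 1.17.1, scikit-learn 1.9.0, biopython 1.88 and matplotlib 3.10.9. Sequences came from GENCODE M21 and RefSeq (GRCm38.p6), a build other than that of the processing notes.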

Additional observations from a re-analysis of the deposited data

How the results depend on the processing

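Of 41 values recomputed under another setting, 36 stayed within the 95% interval of the reported count of cells or within 1 SD of the reported value. That interval describes the choice of cells, so it is a loose yardstick for a change of setting on the same cells. As deposited, 1 of the 5 genes had every hepatocyte-like cell above every other cell, and both rescalings to 1000000 CPM, added for this count after seeing the data, gave 5. At a threshold of 10 CPM, 13 cells outside the hepatocyte-like class had the serpin sum in place of 7. Over all cells the count was 19 in place of 13, which still lay within the interval. The median sum in the hepatocyte-like cells was 48388 CPM with each cell rescaled to 1000000 and 51081 CPM with Rn45s, Lars2 and Rorb also left out, which follows from cell sums of 351255 to 1168850 CPM in this class. All 5 genes were detected together in 6 cells at any value above the lowest, at 10 CPM and at 100 CPM. The hepatocyte-like class had 6 cells under pseudocounts of 0.1 and 10 and under average linkage. A rule of at least 10 hepatocyte markers at 100 CPM gave 8 cells, 6 of them in the class. Without cells 38 and 39, whose depth is unknown, 4 cells had all 5 genes and the median sum was 33844 CPM, an alternative chosen after seeing the data, like the addition of Serpina1d (28166 CPM). The filter on cells with few genes removed 0 cells and so tested nothing, although its values are counted among the 36. No paired analysis was possible because all cells are 1 group and no replicate numbers pair them. Depth limits low values most, since 1 CPM stood for as few as 3.67 reads in a cell.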
